A study of Arabidopsis thaliana with 6 samples.

Results

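Late embryogenesis abundant (LEA) proteins, of which the dehydrins are the best known family, were followed in inflorescences of *tink/ibr5-6* mutant and wild-type L*er* plants of *Arabidopsis thaliana*. The list held 52 loci, taken by locus identifier and grouped into families by protein type. A gene was measured where the annotation gave it alone for a probe set of the Affymetrix ATH1 array, and 36 of the 52 genes were measured, each by 1 probe set, out of 13333 genes measured in that way. The other 16 were not analysed here, among them the dehydrin genes *ERD10*, *ERD14*, *XERO1* and *RAB18*, the seed genes *EM1*, *EM6* and *RAB28*, and *SAG21*.

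The *tink/ibr5-6* plants carry an allele of *IBR5*, which encodes a dual-specificity MAPK phosphatase with roles in auxin and abscisic acid responses. The allele came from EMS mutagenesis of *klu-2* plants, mutant in the organ growth gene *KLU*, and was separated from *klu-2* by 3 backcrosses to L*er*, so the comparison rests on 1 allele, and other EMS changes that remained after backcrossing cannot be told apart from it. The L*er* plants were the wild type. RNA came from inflorescences with young flower buds of single plants, 3 of *tink/ibr5-6* and 3 of L*er*, with 1 array per plant and no treatment named. Nothing in the labels says whether the plants were grown apart, so the p-values speak only for the spread among these 6 plants.

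LEA proteins are small, very hydrophilic proteins that mostly lack a fixed fold in solution and build up when cells lose water. Most are made late in seed development, before the embryo dries, and desiccating pollen makes a set of its own. In vegetative tissue abscisic acid induces many of them through bZIP factors of the ABF and ABI type, and cold induces others through the CBF factors.

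The values were log2 intensities after gcrma, whose lowest value was 2.1, and a gene is said to carry a signal where it reached 3 on some array. Array medians lay between 6.18 and 6.20, and arrays correlated at 0.996 to 0.998 within a genotype and at 0.972 to 0.985 between genotypes. Of the labelled tissue's floral identity genes, 2 of 14 were measured. *SPL*, the SPOROCYTELESS regulator of early anthers and ovules, gave 7.68, 7.49 and 7.63 in *tink/ibr5-6* and 7.59, 7.55 and 7.76 in L*er*, whereas *UFO* had no signal. Genes of the tapetum, the nurse tissue of the anther, averaged 10.66 to 10.82 on the *tink/ibr5-6* arrays and 10.42 to 10.45 on the L*er* arrays.

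Among the 36 LEA genes, 1 dehydrin gene rose in *tink/ibr5-6*, 7 genes of other LEA families fell and 28 were not called. A gene was called at an adjusted p under 0.05 in limma (Benjamini-Hochberg over all 22746 probe sets) with a change of more than 1 on the log2 scale. The share called was 2.78% higher and 19.4% lower, against 1.53% and 2.71% of all probe sets, where calls in either direction made up 4.25%. The arrays of the genotypes did not overlap for 13 of the 36 genes (36.1%), against 35.7% of all probe sets, a share close to the background. With 1 array left out, 1 gene was called higher in each of the 6 fits, and 2 to 6 were called lower, with 2 without replicate 1 or replicate 2 of *tink/ibr5-6*, 6 without replicate 3 of *tink/ibr5-6*, and 3, 4 and 5 without L*er* replicates 1, 2 and 3. The median log2 fold change was 0.00 over the 36 genes and 0.00 over all probe sets. This median includes 15 genes that lay under 3 on every array with one value throughout, so that 21 genes carried a signal on some array. With no limit on the fold, 3 genes passed the adjusted p higher and 7 lower, against 9.6% and 6.65% of all probe sets and 16.3% in either direction.

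**Figure D1:**
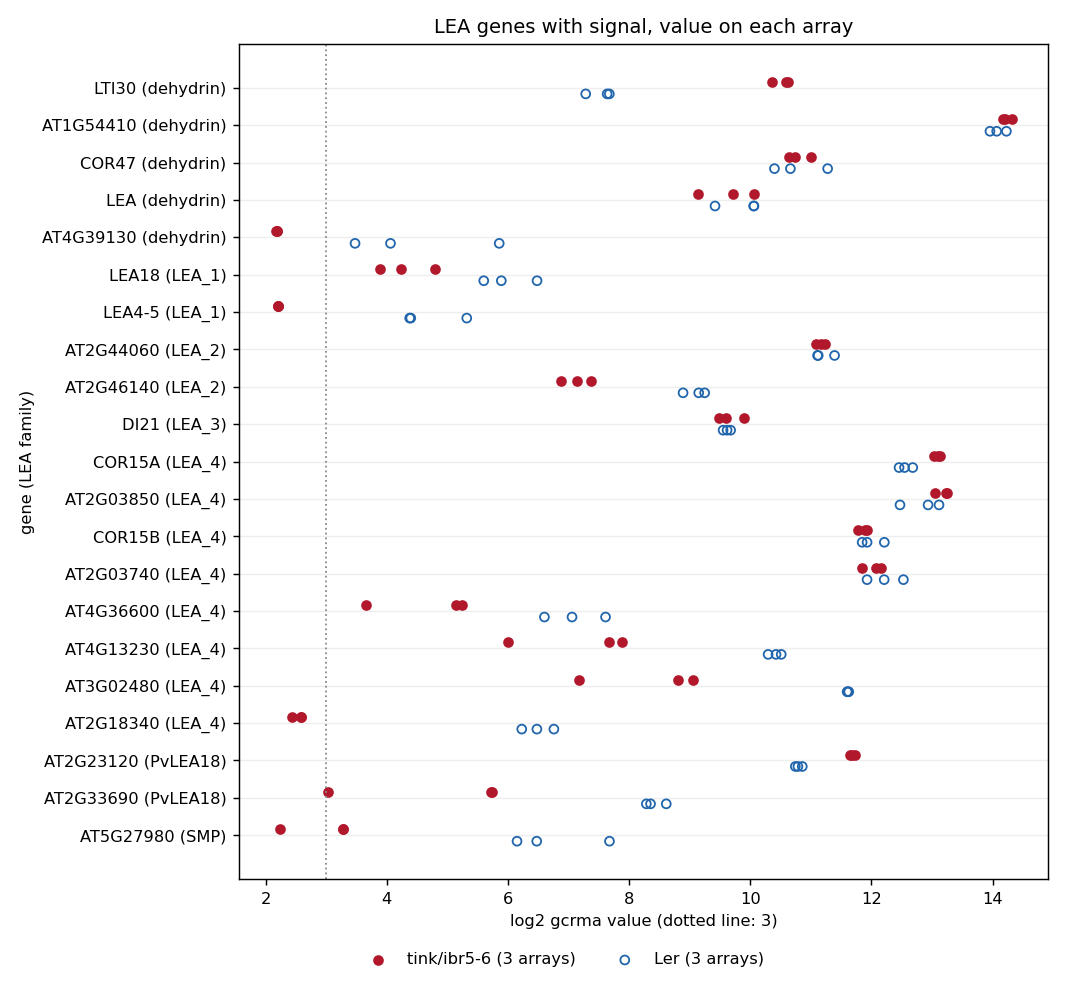
Log2 gcrma values of the 21 LEA genes with a value of at least 3 on some array. Each point is 1 array, with *tink/ibr5-6* above L*er* for each gene. *LTI30* lies higher in *tink/ibr5-6* by 2.99, and the 7 genes called lower have all 3 *tink/ibr5-6* points below the L*er* points.

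Dehydrins carry lysine-rich K-segments that fold into helices on membranes, and they protect membranes and enzymes in cold and drought. Of 10 dehydrin genes, 6 were measured and 5 carried a signal. *LTI30* (At3g50970, also XERO2), a cold- and abscisic acid-induced dehydrin that binds membranes, was the gene that rose. Its log2 values were 10.59, 10.63 and 10.35 in *tink/ibr5-6*, against 7.28, 7.67 and 7.64 in L*er*. All 3 mutant plants were high and the genotypes lay far apart. *tink/ibr5-6* averaged 10.52 ± 0.15, against 7.53 ± 0.22 for L*er* (SD, n = 3 per genotype). This was 7.97-fold higher, with a log2 fold change of 2.99 ± 0.14 (SE) and a limma adjusted p = 0.00281. Its change ranked 13 among the most positive of 22746 probe sets, and it was called with any 1 of the 6 arrays left out (2.87 to 3.08).

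The other dehydrin genes with signal were not called. *COR47* (At1g20440), an acidic dehydrin induced by cold, gave 10.74, 11.00 and 10.64 in *tink/ibr5-6* and 10.40, 11.28 and 10.66 in L*er*. The L*er* arrays spanned the mutant ones, and the 95% interval of the log2 difference ran from -0.70 to 0.73. AT1G54410, known as HIRD11, a small histidine-rich dehydrin that binds metal ions, gave 14.20, 14.32 and 14.18 in *tink/ibr5-6* and 14.23, 14.07 and 13.96 in L*er*, with overlapping genotypes. Its interval, -0.08 to 0.38, was the narrower one. AT2G21490, annotated as *LEA*, gave 9.71, 10.07 and 9.14 in *tink/ibr5-6* and 9.42, 10.06 and 10.06 in L*er*, and its interval of -1.08 to 0.68 leaves room for a change of the size used for calls.

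AT4G39130, a further dehydrin gene, gave 2.17, 2.18 and 2.18 in *tink/ibr5-6*, against 3.47, 4.06 and 5.85 in L*er*. No mutant array reached 3, and L*er* replicate 3 stood well above the other L*er* arrays. The genotypes did not overlap, but the difference of -2.29 ± 0.68 (SE) missed the threshold (limma adjusted p = 0.104) and passed it only without L*er* replicate 3 among the fits with 1 array left out. Since every mutant array was under 3, the size of this difference rests on the lowest gcrma values. It was -1.46 with values under 3 raised to 3 (limma adjusted p = 0.265), and the L*er* mean lay 2.76-fold above that level. AT4G38410 had no signal on any array.

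The LEA_4 family, whose repeated motif forms amphipathic helices on drying, was the largest of the list, with 15 of 18 genes measured and 8 with signal. In this family 3 genes fell, none rose and 12 were not called. AT2G18340 had the values 2.58, 2.43 and 2.58 in *tink/ibr5-6*, against 6.48, 6.23 and 6.76 in L*er*. All mutant arrays lay near the lowest value and all L*er* arrays well above it. The log2 difference was -3.96 ± 0.15 (SE, limma adjusted p = 0.00179), and with the mutant arrays taken at a log2 value of 3 the gene was at least 11.2-fold lower. It was called with any 1 array left out (-4.09 to -3.83). Every *tink/ibr5-6* array lay under 3 for this gene, and 0.514% of all probe sets had that pattern and were called lower.

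AT3G02480 encodes a small LEA protein induced by abscisic acid. Its values were 8.81, 9.05 and 7.18 in *tink/ibr5-6*, against 11.63, 11.60 and 11.61 in L*er*. The L*er* arrays were nearly equal, and *tink/ibr5-6* replicate 3 was the lowest. Averages of 8.35 ± 1.02 for *tink/ibr5-6*, against 11.61 ± 0.01 for L*er* (SD, n = 3 per genotype), gave a log2 fold change of -3.27 ± 0.56 (SE, 9.62-fold lower, limma adjusted p = 0.0287). AT4G13230 behaved alike, with 7.89, 7.66 and 5.99 in *tink/ibr5-6* and 10.29, 10.42 and 10.51 in L*er*, and a change of -3.23 ± 0.57 (SE, 9.37-fold lower, limma adjusted p = 0.031). With 1 array left out, both genes stayed past the threshold when *tink/ibr5-6* replicate 3 was the one dropped and in no other such fit, at -2.68 for AT3G02480 and -2.63 for AT4G13230.

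AT4G36600 gave 5.25, 5.14 and 3.65 in *tink/ibr5-6*, against 6.60, 7.06 and 7.61 in L*er*. The genotypes did not overlap and *tink/ibr5-6* replicate 3 was again the lowest, but the difference of -2.41 ± 0.56 (SE) missed the threshold (limma adjusted p = 0.0585). Without *tink/ibr5-6* replicate 3 it was -1.90 and still not called (limma adjusted p = 0.0703).

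The cold-regulated pair *COR15A* and *COR15B*, adjacent genes whose proteins enter the chloroplast and stabilise its membranes on freezing, belongs to the same family. *COR15A* (At2g42540) gave 13.14, 13.10 and 13.04 in *tink/ibr5-6*, against 12.46, 12.55 and 12.68 in L*er*. All mutant arrays were higher, and the log2 difference of 0.53 ± 0.07 (SE, limma adjusted p = 0.015) passed the adjusted p without reaching the limit on the fold. *COR15B* (At2g42530) gave 11.77, 11.93 and 11.90 in *tink/ibr5-6*, against 11.85, 11.93 and 12.21 in L*er*, with overlapping arrays and an interval from -0.44 to 0.18. The difference between the changes of the pair was not tested.

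The remaining LEA_4 genes with signal were AT2G03740 and AT2G03850. AT2G03740 gave 12.16, 11.84 and 12.08 in *tink/ibr5-6* and 11.93, 12.21 and 12.53 in L*er*. AT2G03850 gave 13.24, 13.05 and 13.23 in *tink/ibr5-6* and 12.47, 12.94 and 13.12 in L*er*. The genotypes overlapped for both, with intervals from -0.70 to 0.31 for AT2G03740 and from -0.18 to 0.85 for AT2G03850.

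**Figure D2:**
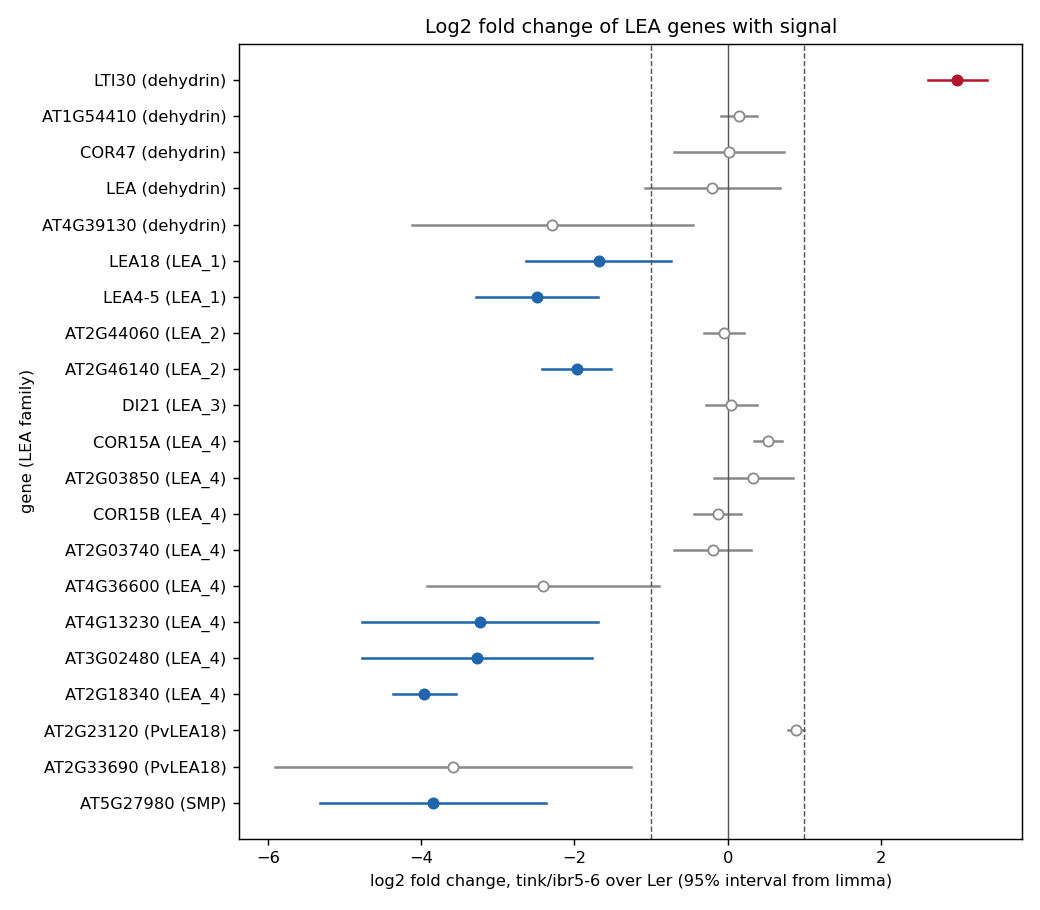
Log2 fold change of *tink/ibr5-6* over L*er* for each LEA gene with signal, with its 95% interval from limma, grouped by family, with filled points for genes called and dashed lines at a change of 1 in either direction. Of the genes called, *LTI30* alone lies above 1, at 2.99, and the 7 genes called lower lie between -3.96 and -1.69.

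In the LEA_1 family, whose members accumulate in dry seeds and under water deficit, all 3 genes were measured and 2 fell. *LEA4-5* (At5g06760), which is induced by drought and salt in vegetative tissue, gave 2.21 on all 3 *tink/ibr5-6* arrays, against 4.39, 4.38 and 5.32 in L*er*. No mutant array reached 3, and the gene was at least 3.24-fold lower (log2 difference -2.49 ± 0.30, SE, limma adjusted p = 0.0132). The mutant values were equal, so the spread came from the L*er* arrays alone. With values under 3 raised to 3 the difference was -1.70 (limma adjusted p = 0.0319). The call was lost when either replicate 1 or replicate 2 of *tink/ibr5-6* was left out (limma adjusted p = 0.0548 and 0.0566). It was kept without replicate 3 (limma adjusted p = 0.0496). Since the mutant values were equal, these 3 fits differ for this gene only through the other probe sets, which enter the prior and the adjustment. *LEA18* (At2g35300) gave 4.23, 4.79 and 3.89 in *tink/ibr5-6*, against 5.89, 5.60 and 6.48 in L*er*. The genotypes did not overlap, and the change of -1.69 ± 0.35 (SE, 3.22-fold lower, limma adjusted p = 0.0448) was close to the threshold and was not called in any of the 6 fits that left out 1 array. *AtLEA4-1* had no signal.

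LEA_2 proteins differ from the rest of the group in that they hold a stable fold. AT2G46140 gave 7.36, 7.14 and 6.87 in *tink/ibr5-6*, against 8.89, 9.25 and 9.15 in L*er*. All 3 mutant arrays were low, averaging 7.12 ± 0.25, against 9.09 ± 0.18 for L*er* (SD, n = 3 per genotype). The change was -1.97 ± 0.17 (SE, 3.92-fold lower, limma adjusted p = 0.00713), and it was called with any 1 array left out (-2.09 to -1.85). AT2G44060 of the same family gave 11.23, 11.08 and 11.16 in *tink/ibr5-6* and 11.11, 11.12 and 11.39 in L*er*, with overlapping arrays and an interval from -0.31 to 0.21.

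Seed maturation proteins (SMP) accumulate late in embryo development. Of 6 such genes 2 were measured, and AT5G27980 fell. It gave 3.27, 2.24 and 3.27 in *tink/ibr5-6*, against 6.47, 7.68 and 6.15 in L*er*. The mutant arrays lay close to the lowest value and well under all L*er* arrays. *tink/ibr5-6* averaged 2.93 ± 0.59, against 6.77 ± 0.80 for L*er* (SD, n = 3 per genotype), a change of -3.84 ± 0.55 (SE, limma adjusted p = 0.0191). Of the fits with 1 array left out, only those without L*er* replicate 2 and without L*er* replicate 3 called it. AT3G22490 had no signal.

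The 3 genes related to the bean protein PvLEA18 were all measured and none was called. AT2G23120 gave 11.68, 11.73 and 11.65 in *tink/ibr5-6*, against 10.79, 10.74 and 10.86 in L*er*. All mutant arrays were higher by an even margin, and the change of 0.89 ± 0.04 (SE, 1.85-fold, limma adjusted p = 0.00248) passed the adjusted p but not the limit on the fold. AT2G33690 gave 5.72, 5.74 and 3.02 in *tink/ibr5-6*, against 8.28, 8.61 and 8.35 in L*er*. The mutant arrays were all lower, with replicate 3 far below the others, and the difference of -3.59 ± 0.87 (SE) missed the threshold (limma adjusted p = 0.0633). Without *tink/ibr5-6* replicate 3 it was -2.68 and called (limma adjusted p = 0.00946). AT2G23110, the chromosomal neighbour of AT2G23120, had no signal.

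Of the LEA_3 family, small proteins of which some enter mitochondria, *DI21* (At4g15910), named for its induction by drought, gave 9.59, 9.49 and 9.90 in *tink/ibr5-6* and 9.68, 9.62 and 9.55 in L*er*. The arrays overlapped and the interval ran from -0.29 to 0.38. AT3G53770 of this family had no signal. The 2 genes of the LEA_5 family, the Em proteins of dry seeds, were not measured.

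The 15 genes under 3 on every array lay between 2.1 and 2.15, and 31.5% of all probe sets were under 3 throughout. They were *M17*, *M10*, *AtLEA4-1*, AT3G53770, AT2G23110, AT3G22490, AT4G38410, AT5G66780 and the LEA_4 genes AT1G72100, AT2G42560, AT3G15670, AT3G17520, AT3G53040, AT4G21020 and AT5G44310. No statement on a change can be made for these. Among the genes that did carry a signal, raising values under 3 to 3 gave -3.49 for AT2G18340, -3.59 for AT5G27980 and -3.59 for AT2G33690, so the order of these genes rests on values near the lowest of gcrma.

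**Figure D3:**
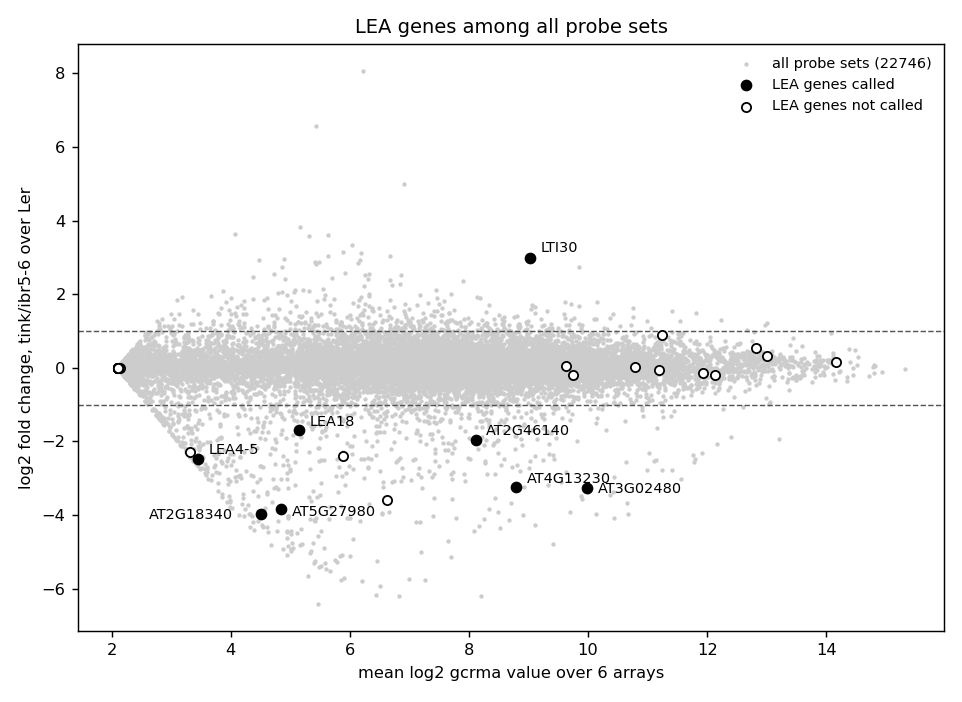
Log2 fold change of *tink/ibr5-6* over L*er* against the mean log2 value over the 6 arrays, for all 22746 probe sets (grey) and the 36 LEA genes (black, filled where called), with dashed lines at a change of 1 in either direction. *LTI30* stands among the highest changes at 2.99, and AT2G18340 and AT5G27980 lie at -3.96 and -3.84, with mutant values at or near the lowest of gcrma.

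Genes of mature pollen and sperm were looked at beside the LEA genes. Of 32 listed pollen genes 9 were measured. Of these 6 were called lower and 0 higher, against 2.71% and 1.53% of all probe sets. The actin-bundling gene *PLIM2A* gave 3.75, 2.23 and 2.33 in *tink/ibr5-6*, against 7.63, 8.94 and 7.98 in L*er*, a change of -5.41 ± 0.60 (SE, limma adjusted p = 0.0115). The pollen sugar transporter *SWEET5* changed by -4.71, the pollen tube receptor kinase *BUPS1* by -3.18, *PLIM2B* by -2.49 and the pollen actin *ACT12* by -1.46. The receptor kinase *ANX2* lay under 3 on every mutant array and was at least 7.53-fold lower (limma adjusted p = 0.0141). *HTR10*, the histone of sperm cells, was not called (-2.95). *ANX1*, at the lowest value on every mutant array, was not called either, its L*er* mean lying 1.47-fold above a log2 value of 3, and *BUPS2* had no signal. The mean log2 value over the 9 genes was 3.27 to 3.94 on the *tink/ibr5-6* arrays and 6.13 to 6.77 on the L*er* arrays.

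Set against the L*er* mean of each gene, the 7 LEA genes called lower lay on average at -2.67, -2.79 and -3.30 on *tink/ibr5-6* arrays 1, 2 and 3, and at -0.14, 0.01 and 0.13 on the L*er* arrays. These 7 genes were picked because they fell, so the sign of their mutant distances was fixed by that choice. The 9 pollen genes lay at -2.49, -2.72 and -3.15 on the *tink/ibr5-6* arrays and at -0.29, 0.35 and -0.05 on the L*er* arrays. By mean and by median distance, replicate 3 was the lowest mutant array in both groups, but single genes differed. Of the LEA genes, *LEA18*, AT2G46140, AT3G02480 and AT4G13230 were lowest on replicate 3, and AT2G18340 and AT5G27980 on replicate 2. *LEA4-5* was equal on the mutant arrays. Of the pollen genes, *PLIM2B*, *ANX2*, *SWEET5*, *ACT12* and *HTR10* were lowest on replicate 3, and *PLIM2A* and *BUPS1* on replicate 2. *ANX1* was equal on the mutant arrays, and *BUPS2* had no signal. Some of these orders rest on small gaps or on values under 3. *ANX2* and AT2G18340 lay under 3 on every mutant array. *PLIM2A* gave 2.23 and 2.33 on replicates 2 and 3, and *ACT12* gave 4.40, 4.40 and 4.34 on replicates 1, 2 and 3. A pattern shared by the 2 groups cannot be read from such orders. The part of the pollen genes in the fall of the LEA genes was not tested, and in whole inflorescences fewer cells of a type and less RNA per cell cannot be told apart.

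**Figure D4:**
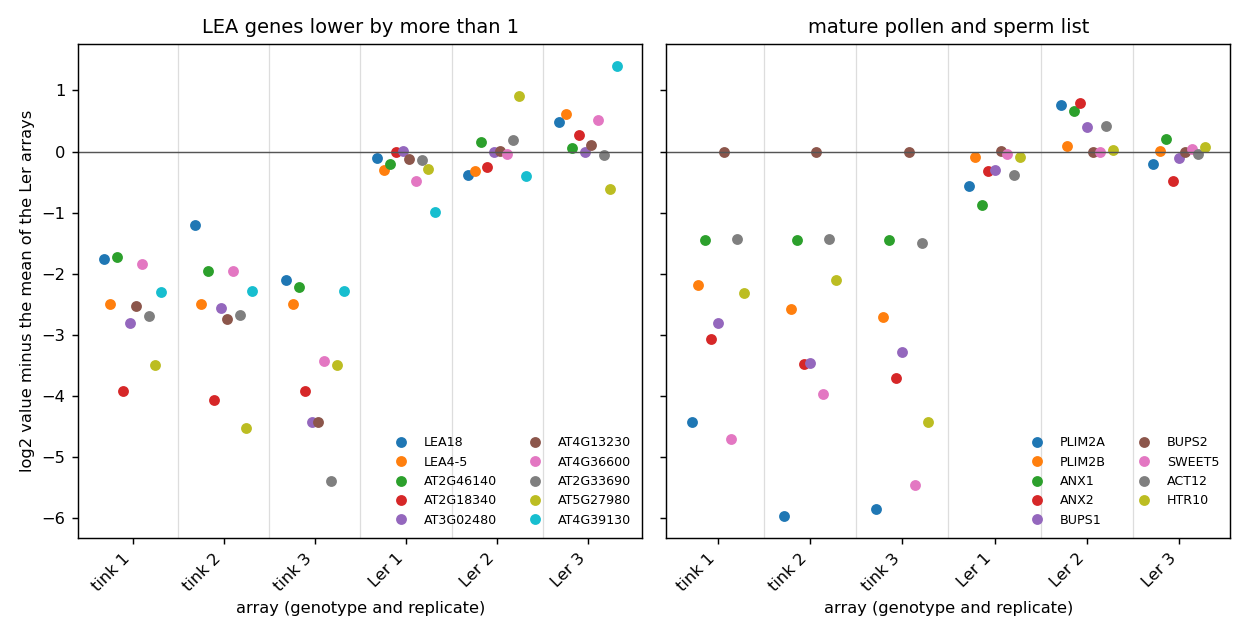
Log2 value of each gene on each array minus its mean over the L*er* arrays, for the 10 LEA genes lower by more than 1 (left, 7 of them called) and the 9 measured genes of the pollen and sperm list (right). Each point is 1 gene on 1 array, with *tink/ibr5-6* arrays left of L*er* arrays, and on *tink/ibr5-6* replicate 3 the LEA genes AT3G02480, AT4G13230, AT4G36600 and AT2G33690 lie below their values on the other mutant arrays.

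For 4 LEA genes *tink/ibr5-6* replicate 3 was more than 1 below both other mutant arrays, by 1.63 for AT3G02480, 1.67 for AT4G13230, 1.49 for AT4G36600 and 2.70 for AT2G33690. Over all probe sets 130 had this pattern (0.572%). *HTR10* of the pollen list had it too, with 4.92, 5.14 and 2.81 in *tink/ibr5-6*, against 7.14, 7.27 and 7.31 in L*er*. Without *tink/ibr5-6* replicate 3 its difference was -2.21 and called (limma adjusted p = 0.00937). Other arrays stood apart by more than 1 for AT5G27980, with *tink/ibr5-6* replicate 2 below and L*er* replicate 2 above the rest of their genotype, and for AT4G39130, with L*er* replicate 3 above.

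The other genes of the pathways that act on LEA genes were sparsely covered. None of 59 listed genes of abscisic acid and water stress was measured, so that pathway was not analysed here. Of 28 further genes of the cold response 4 were measured and limma called none, with 2 past an unadjusted p of 0.05, as were 29.8% of all probe sets. *COR27*, a cold-induced regulator of the clock, gave 7.72, 7.66 and 7.83 in *tink/ibr5-6*, against 8.29, 8.38 and 8.42 in L*er*, and its change of -0.63 ± 0.06 (SE, limma adjusted p = 0.00854) passed the adjusted p but not the limit on the fold. Its relative *COR28* changed by -0.78 in the same way (limma adjusted p = 0.0249). The SUMO ligase gene *SIZ1* differed by -0.01, and *ZAT10* was under 3 on every array.

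The seed maturation list held 28 genes, of which 3 were measured and none was called, with 2 past an unadjusted p of 0.05 against 29.8% of all probe sets. *EEL*, a bZIP factor that binds *EM1* in maturing seeds, gave 4.04, 4.12 and 4.33 in *tink/ibr5-6*, against 5.41, 5.04 and 4.97 in L*er*, a change of -0.98 ± 0.15 (SE, limma adjusted p = 0.0234) just under the limit on the fold. *BZIP53*, which acts with the ABI3 regulator in seeds, differed by -0.26 (limma adjusted p = 0.0856). The tapetum list, with 24 genes, had 5 measured and 0 called at these thresholds by limma, with 3 past an unadjusted p of 0.05 against 29.8% of all probe sets. *AMS*, a regulator of tapetum development, was 0.89 higher on the log2 scale (limma adjusted p = 0.0253) and the sugar transporter gene *RPG1* 0.49 higher (limma adjusted p = 0.0147). The differences of *A9*, *EMS1* and *EXL5* were 0.35, 0.26 and -0.34 and did not pass.

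By position, the 8 LEA genes that were called have 16 adjacent genes in the RefSeq annotation of TAIR10.1. Of these 9 were measured and 0 were called by limma, with 5 past an unadjusted p of 0.05 against 29.8% of all probe sets. *LTI30* lies next to *XERO1*, which was not measured.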

How the data were processed

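Total RNA of 3 *tink/ibr5-6* and 3 L*er* plants was hybridised to 1-colour Affymetrix ATH1 arrays. The authors normalized with gcrma (version: not given in the sources used here) and deposited log2 values, which were used as they were. From 22810 probe sets, 64 controls were removed. The platform annotation, which can be old, gave 13513 probe sets 1 gene each, 503 had several and 8730 were not listed. Of several probe sets for a gene, that with the highest mean was taken.

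Genotypes were tested with limma (version 3.58.1, R 4.3.3, lmFit and eBayes, tested on simulated data), with Benjamini-Hochberg adjustment over 22746 probe sets and the thresholds of the study's methods. The prior had 0.401 degrees of freedom, so each spread rested nearly on the gene's own 6 values, and their number limits the precision. With 3 against 3 plants an exact permutation test cannot go below p = 0.1 (two-sided). Where every array of 1 genotype lay under 3, a linear fold is printed only relative to that level, while log2 differences are printed as fitted. This level was set with the values known. All measured LEA genes are named, with values where they reach 3, and from each list up to 4 called and 2 other genes of highest mean. *PLIM2B*, *ACT12*, *BUPS2*, *COR28*, *ZAT10*, *AMS*, *RPG1* and *EMS1* fall outside that rule and were named after their values were seen. The LEA genes and lists were chosen with earlier results of these data known. The alternatives covered scaling, filters, prior, weights, thresholds, the replicate block and each array left out. Promoter motifs and protein segments were not analysed here.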

Additional observations from a re-analysis of the deposited data

How the results depend on the processing

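*LTI30*, AT2G46140 and AT2G18340 were called in every fit that left out 1 array. With 1 array left out, the count of all called probe sets was 518 to 746, that of LEA genes called lower 2 to 6, that of non-overlapping LEA genes 13 to 16, that of pollen genes called 4 to 7 and that of tapetum genes called 0 to 1. The lowest count of LEA genes called lower, 2, came without *tink/ibr5-6* replicate 1 and without replicate 2. With only probe sets of a mean log2 value of at least 6, 11713 probe sets were tested, with 15 of the 36 LEA genes. Of these, 632 probe sets, 4 LEA genes lower and 2 pollen genes were called, and 7 LEA genes did not overlap. This filter removed some genes called lower, such as AT2G18340 and AT5G27980, without testing them. AT2G46140, AT3G02480 and AT4G13230 stayed called lower, and AT2G33690 was added (limma adjusted p = 0.00462). No share over all probe sets at these settings is given for the counts of non-overlap, so they cannot be read against a background. Genotypes also fail to overlap more easily when 1 array is left out. With no limit on the fold, limma called 3697 probe sets (16.3%), 3 LEA genes higher, 2 cold genes, 1 seed gene and 2 tapetum genes. At an adjusted p under 0.01 these were 366 probe sets, 2 LEA genes lower and 3 pollen genes, and *LTI30* stayed called higher (limma adjusted p = 0.00281). The median of the LEA genes was -0.01 with centred arrays, where all 36 genes stayed. It was -0.20 over the 19 genes with a mean of at least 4 and -0.05 over the 15 with a mean of at least 6. Both filters drop the genes without signal. They leave fewer than the 21 genes with signal, so they also drop some of those, among them AT2G18340 at a mean of at least 6.

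The labels do not say whether same-numbered plants form pairs. Deviations of same-numbered arrays correlated at -0.25, 0.01 and -0.04, and those of other arrays at -0.17 to 0.20. Deviations taken within 3 arrays cannot settle the question. With the replicate number as a block, 133 probe sets, 0 LEA genes higher, 1 lower (AT2G18340) and 0 pollen genes were called by limma. Small differences changed sign. *COR47* was -0.03 with array weights, and with 1 array left out *COR47* ran from -0.17 to 0.26, *DI21* from -0.07 to 0.13, *LEA* from -0.42 to 0.05, AT2G44060 from -0.10 to 0.04, *SIZ1* from -0.07 to 0.05 and *SPL* from -0.07 to 0.03. The cause of the other shifts was not tested. AT4G36600 and AT2G33690 were called with centred arrays and with a mean of at least 4. Of the 36 LEA genes 15 lay under 3 on every array, and 3 more (AT2G18340, *LEA4-5* and AT4G39130) on every *tink/ibr5-6* array, so that the lowest gcrma values limit what the arrays can show for 18 genes.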
